A study of Rattus norvegicus with 8 samples.

Results

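The ATF4 response and cytosolic tRNA charging were followed through 38 rat genes on 8 Affymetrix arrays of the thyroid line FRTL-5. These genes were taken by name from a list whose rule uses no measured value, although the list was drawn up with earlier results of these arrays known, and the brightest probe set by mean signal over the 8 arrays stood for each. Of the 38 genes, 37 had a probe set in the annotation and 36 were bright enough to be tested, among 10048 genes tested in all. Pycr1, the last enzyme of proline synthesis, had no probe set in the annotation, and Asns, asparagine synthetase, was too dim. The list holds 8 stress regulators, 5 stress effectors, 3 genes of asparagine and proline synthesis, 5 of serine and one-carbon synthesis, 5 amino acid transporters and 12 tRNA synthetases.

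ATF4 is the transcription factor of the integrated stress response. When kinases that sense lack of amino acids, unfolded proteins, haem or double-stranded RNA phosphorylate the initiation factor eIF2, most translation slows while the message of ATF4 is translated more. ATF4 pairs with C/EBP proteins at composite DNA sites, the C/EBP-ATF response elements, and turns on genes that import and make amino acids and charge tRNAs, together with regulators that feed back on it. In thyrocytes, growth, iodide uptake and hormone synthesis are driven by the TSH receptor, which signals mainly through cyclic AMP.

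FRTL-5 is a rat thyroid follicular cell line that depends on thyrotropin (TSH), and its SB5 sub-clone was used. The cells carried a stably expressed human TSH receptor, either with L629F, a substitution that keeps the receptor active without hormone, or as wild type. The 4 groups of 2 arrays each were L629F cells with 1 mM sodium iodide, L629F cells with 1 mM sodium chloride, wild type cells with 1 mM sodium iodide and wild type cells with 1 mM sodium chloride. All of them, chloride controls included, were grown with 5 mU/ml bovine TSH, so the wild type receptor was stimulated as well. The labels name 1 line per receptor, so the receptor and the line that carries it cannot be told apart, and they give no duration of treatment. They do not call the replicates separate cultures, so the p-values reflect no more than the spread among these arrays, which may be technical.

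Values were MAS5 signals on a linear scale, a brightness that can be compared between arrays for 1 probe set but not between probe sets. Without the lowest and highest 2% of probe sets each array averaged 500.2, while the median signal lay between 138.3 and 147.5 on the L629F arrays and between 118 and 127 on the wild type arrays. The 25th percentile ran from 40.8 to 43.1 on L629F arrays and from 29.3 to 31.6 on wild type arrays, so low signals were higher throughout in L629F. The ratio of the 3′ over the 5′ GAPDH probe sets, raised where RNA is degraded, was 2.12 ± 0.407 on L629F and 1.82 ± 0.881 on wild type arrays (SD, n = 4 each). By salt it was 2.32 ± 0.716 with iodide and 1.62 ± 0.397 with chloride (SD, n = 4 each). The same ratio for actin was 6.56 ± 0.925 on L629F and 5.02 ± 2.98 on wild type arrays (SD, n = 4 each). Of the 4 wild type arrays, 3 lay below all L629F arrays in it and 1 above them, and its part in the results was not tested. A tested probe set was present for 7 thyroid follicular markers, of which Tg (10748 to 16582 over the 8 arrays), Pax8 and Nkx2-1 were bright on every array. The endothelial markers Pecam1 and Kdr, the C cell markers Calca and Chga and the leucocyte markers Ptprc and Cd68 were all too dim to be tested. So was the fibroblast marker Col1a2. At these low signals Cd68 read 14.3 to 22.2 in L629F and 34.5 to 100.9 in wild type cells. Ptprc read 4.1 to 116.3 in L629F and 3.9 to 9 in wild type cells. The fibroblast markers Col1a1 and Pdgfra and the leucocyte marker Cd3e had mean signals of 114 to 137 and were tested. Pdgfra read 27.8 to 141.5 in L629F and 117.2 to 226.3 in wild type cells (-0.86 ± 0.32, adjusted p = 0.164), and neither Col1a1 nor Cd3e passed (0.34 ± 0.24, adjusted p = 0.466, and 0.23 ± 0.23, adjusted p = 0.6). In bulk RNA, fewer cells with a transcript and less of it per cell cannot be told apart.

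The first question was whether these genes differ between cells with the activated and with the wild type receptor. Averaged over both salts, most of them did: 21 of the 36 were higher in L629F cells and 1, Atf4 itself, was lower. Over all 10048 genes, 2.04% were higher and 1.09% were lower (limma, Benjamini-Hochberg adjusted p under 0.05). By role, the genes that were higher took in 9 of 12 tRNA synthetases, 4 of 5 transporters, 3 of 5 genes of serine and one-carbon synthesis and the 1 tested gene of proline synthesis, 2 of 5 stress effectors and 2 of 8 stress regulators. The median log2 change of the 36 genes was 0.54, against -0.0034 over all genes tested. The mean signal of the 21 genes was 1.35 to 2.95 times as high in L629F as in wild type cells. For each of them all 4 L629F arrays lay above all 4 wild type arrays, which picking them by this same comparison favours.

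Counted without a test, 22 of the 36 genes had all 4 L629F arrays above all 4 wild type arrays, against 5.64% of all genes, and 1 had them below, against 4.65%. Among bright genes, those of mean signal at least 1000, 17 of 28 members were higher, against 2.43% of 3912 genes. Centring each array on the median of all its probe sets moved the median change of all genes to -0.17. The members then gave 16 higher and 2 lower, and of all genes called 143 of 1370 were higher, against 205 of 315 without centring. With the GAPDH ratio as a covariate 23 members passed, while the calls over all genes went up to 704 (7.01%). Leaving out wild type chloride replicate 1 left 10 members past the threshold and leaving out wild type chloride replicate 2 left 13, whereas the other fits without 1 array gave 15 to 20. The members that passed in all 8 of these fits were Nupr1, Chac1, Sesn2, Aldh18a1, Phgdh, Slc7a5, Slc7a11, Eprs1, Iars1 and Lars1.

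**Figure D1:**
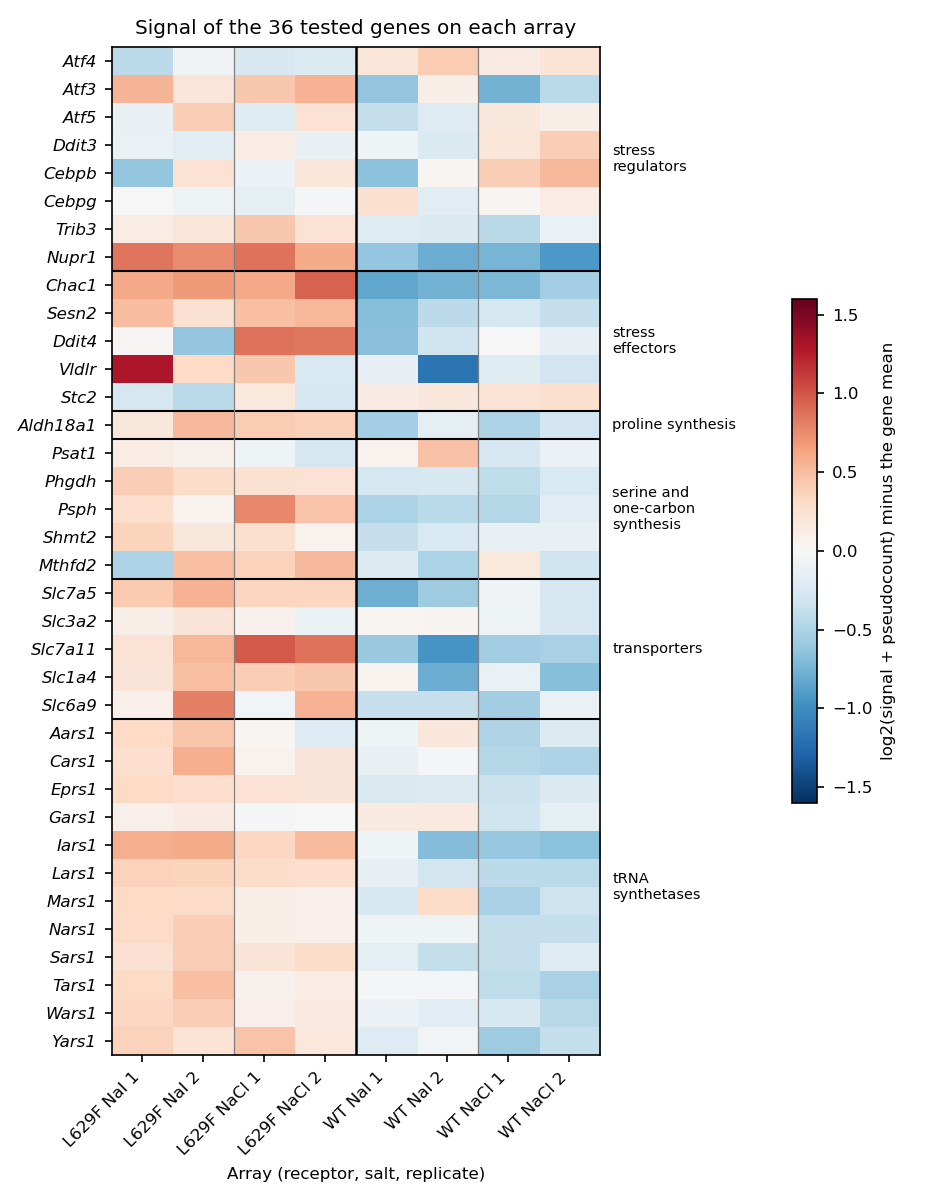
Signal of the 36 tested genes (rows, by role) on each of the 8 arrays (columns, L629F left of wild type and iodide left of chloride), as log2(signal + pseudocount) minus the gene's mean. In 22 of the 36 rows all 4 L629F arrays lie above all 4 wild type arrays, and in Atf4, the top row, they lie below.

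In what follows the 4 signals of a line are given as the 2 iodide arrays and then the 2 chloride arrays, and changes are log2(signal + 35.3) differences, L629F minus wild type averaged over the salts, with their SE. All adjusted p-values are from limma with Benjamini-Hochberg adjustment over all genes tested.

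Among the regulators, the message of ATF4 itself was lower in L629F cells. Atf4 read 5201, 6711, 5812 and 5985 in L629F cells and 7946, 9249, 7617 and 8139 in wild type cells. The highest L629F array stayed below the lowest wild type array. The change was -0.47 ± 0.10 (adjusted p = 0.0239), with a mean of 5927 ± 621 in L629F and 8238 ± 708 in wild type cells (SD, n = 4 each). With 1 array left out it passed in 2 of the 8 fits, with changes from -0.57 to -0.38, and it also missed the threshold with no filter on dim probe sets and without the variance trend (adjusted p up to 0.105). An array reads the message and not the protein. The regulation of ATF4 described above is at translation, and its part here was not tested.

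Nupr1, a small nuclear protein induced by many stresses, had the largest change of the 36 genes. It read 3936, 3662, 3980.0 and 3261 in L629F cells and 1396, 1234, 1273 and 1121 in wild type cells. Its level in L629F was 2.95 times that in wild type, a change of 1.54 ± 0.11 (adjusted p = 1.83e-05), and it passed in every fit without 1 array. Trib3, a pseudokinase that is induced by ATF4 and binds it, read 1735, 1816, 2158 and 1867 in L629F cells and 1377, 1354, 1161 and 1477 in wild type cells. Its change was smaller, 0.49 ± 0.11 (adjusted p = 0.0362), and it passed in none of the 8 fits without 1 array (highest adjusted p = 0.164). A further 2 probe sets of Trib3 gave 0.76 and 0.24.

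The other regulators did not pass. Atf3, a stress-induced factor of the same family, read 264, 199, 241 and 265 in L629F cells and 97.2, 184, 85.6 and 116 in wild type cells, with no overlap between the lines. Its change was 0.86 ± 0.22 (adjusted p = 0.0529) at signals where the L629F arrays read higher as a whole. Ddit3, which encodes the death-linked factor CHOP, read 373, 354, 443 and 369 in L629F cells and 386, 340.4, 469 and 544 in wild type cells, and the lines overlapped (-0.15 ± 0.14, adjusted p = 0.604). Cebpb, a partner of ATF4 on DNA, read 1457, 2664, 2105 and 2584 in L629F cells and 1421, 2312, 2972 and 3238 in wild type cells, a change of -0.14 ± 0.18 (adjusted p = 0.703). Atf5, a relative of ATF4 that is also controlled at translation, read 2641, 3784, 2516 and 3392 in L629F cells and 2202, 2481, 3280.4 and 3071 in wild type cells, and its change of 0.16 turned to -0.015 when arrays were centred on all probe sets. Cebpg, another partner, gave -0.12 ± 0.12, and its second probe set gave 0.26.

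The effectors were led by Chac1, an enzyme that breaks down glutathione. Chac1 read 1903, 2014, 1913 and 2417 in L629F cells and 684, 719, 736 and 843 in wild type cells, with means of 2062 ± 242 in L629F and 745 ± 68.5 in wild type cells (SD, n = 4 each). The lowest L629F array was above 2 times the highest wild type array. The change was 1.42 ± 0.12 (adjusted p = 2.57e-05). Sesn2, which restrains the growth kinase complex mTORC1 when leucine is short, read 2417, 2022, 2399 and 2485 in L629F cells and 1051, 1269, 1394 and 1303 in wild type cells, a change of 0.88 ± 0.11 (adjusted p = 0.00125). Both genes passed in all 8 fits without 1 array.

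Ddit4, another inhibitor of mTORC1, read 1395, 881, 2534 and 2504 in L629F cells and 853, 1099.8, 1381 and 1251 in wild type cells. Its 2 L629F chloride arrays stood apart from the other 6, and the difference between lines did not pass (0.56 ± 0.14, adjusted p = 0.055). Stc2, a secreted glycoprotein of the stanniocalcin family, read 967, 864, 1327 and 969.8 in L629F cells and 1294, 1330.0, 1374 and 1408 in wild type cells. Here 3 L629F arrays lay below all wild type arrays and the other lay among them (-0.40 ± 0.12, adjusted p = 0.0984). Vldlr, a lipoprotein receptor, ranged from 62.6 to 249 in L629F cells and from 16 to 70.3 in wild type cells, a change of 0.90 ± 0.33 (adjusted p = 0.152). These too are signals where the L629F arrays read higher as a whole. Its further probe sets, of mean signal 15.75, 9.03 and 7.62, were left out as dim and gave 0.11, 0.067 and 0.061.

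Asns, the classical ATF4 target, was close to the limit of the arrays. It read 93.5, 62.3, 89.1 and 85.2 in L629F cells and 62.4, 5.6, 7.5 and 14.1 in wild type cells. The lowest L629F value lay just under the highest wild type value, and the gene was left out of the test as dim. With no filter its change was 1.12 ± 0.30 and did not pass (adjusted p = 0.0988). Aldh18a1, which makes the precursor of proline from glutamate, was well measured. It read 3296, 4176, 3861 and 3799 in L629F cells and 1976, 2622, 2026 and 2334 in wild type cells, 1.69 times as high in L629F (0.75 ± 0.12, adjusted p = 0.00454).

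Serine is made in 3 steps, and the genes of the first and the last step were higher in L629F cells while that of the middle step was not called. Phgdh, the first enzyme, read 6308, 5879, 5669 and 5593 in L629F cells and 3940.2, 4009, 3604 and 4047 in wild type cells, with no overlap (0.58 ± 0.09, adjusted p = 0.00377). Psat1, the middle enzyme, read 21776, 21081, 19032 and 16583 in L629F cells and 20909, 27647, 16648 and 18714 in wild type cells, and the lines overlapped (-0.08 ± 0.10, adjusted p = 0.697). Psph, the last enzyme, read 1022, 862, 1446 and 1150.3 in L629F cells and 574, 607, 594 and 738 in wild type cells, a change of 0.78 ± 0.13 (adjusted p = 0.00655). The 95% interval of the Psat1 change ran from -0.29 to 0.13.

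Serine then feeds the folate cycle of mitochondria. Shmt2, which turns serine into glycine there, read 7243, 6369, 6765 and 5863 in L629F cells and 4333, 4763, 5176 and 5199 in wild type cells, 1.35 times as high in L629F (0.43 ± 0.09, adjusted p = 0.0264). Mthfd2, the next enzyme of that cycle, read 482, 988, 906 and 1008 in L629F cells and 595, 480.4, 786 and 549.7 in wild type cells. L629F iodide replicate 1 lay among the wild type arrays, and the change did not pass (0.43 ± 0.19, adjusted p = 0.239). Psph passed in 7 of the 8 fits without 1 array and missed without wild type chloride replicate 1, and Shmt2 passed in 4.

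Of the amino acid transporters, 4 were higher in L629F cells, and Slc3a2, the partner chain of 2 of them, was not called. Slc7a11, which imports cystine, read 329, 412, 580.2 and 529.9 in L629F cells and 171, 126, 177 and 181 in wild type cells. The lowest L629F array was well above the highest wild type array, and the mean was 2.83 times as high (1.30 ± 0.17, adjusted p = 0.0014). Slc7a5, which imports leucine and other large neutral amino acids, read 837, 929, 798 and 794 in L629F cells and 345, 407, 593 and 509 in wild type cells (0.83 ± 0.13, adjusted p = 0.00388). Slc3a2, the chain that both of them need at the cell surface, read 5608, 6092, 5518 and 4908 in L629F cells and 5405, 5449, 4981 and 4359 in wild type cells. The lines overlapped (0.13 ± 0.09, adjusted p = 0.452), and the sign turned with centring on all probe sets (-0.038).

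Slc1a4, a carrier of alanine, serine and cysteine, read 642, 791, 741 and 759 in L629F cells and 577, 306, 514 and 332 in wild type cells. Slc6a9, a glycine transporter, read 2091, 3484, 1911 and 2917 in L629F cells and 1523, 1525, 1329.8 and 1836 in wild type cells. Both lay near the threshold, with changes of 0.76 ± 0.19 (adjusted p = 0.0479) and 0.70 ± 0.17 (adjusted p = 0.0459), and passed in 1 and 2 of the 8 fits without 1 array. The 2 further probe sets of Slc6a9 gave changes of 0.49 and 0.59.

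**Figure D2:**
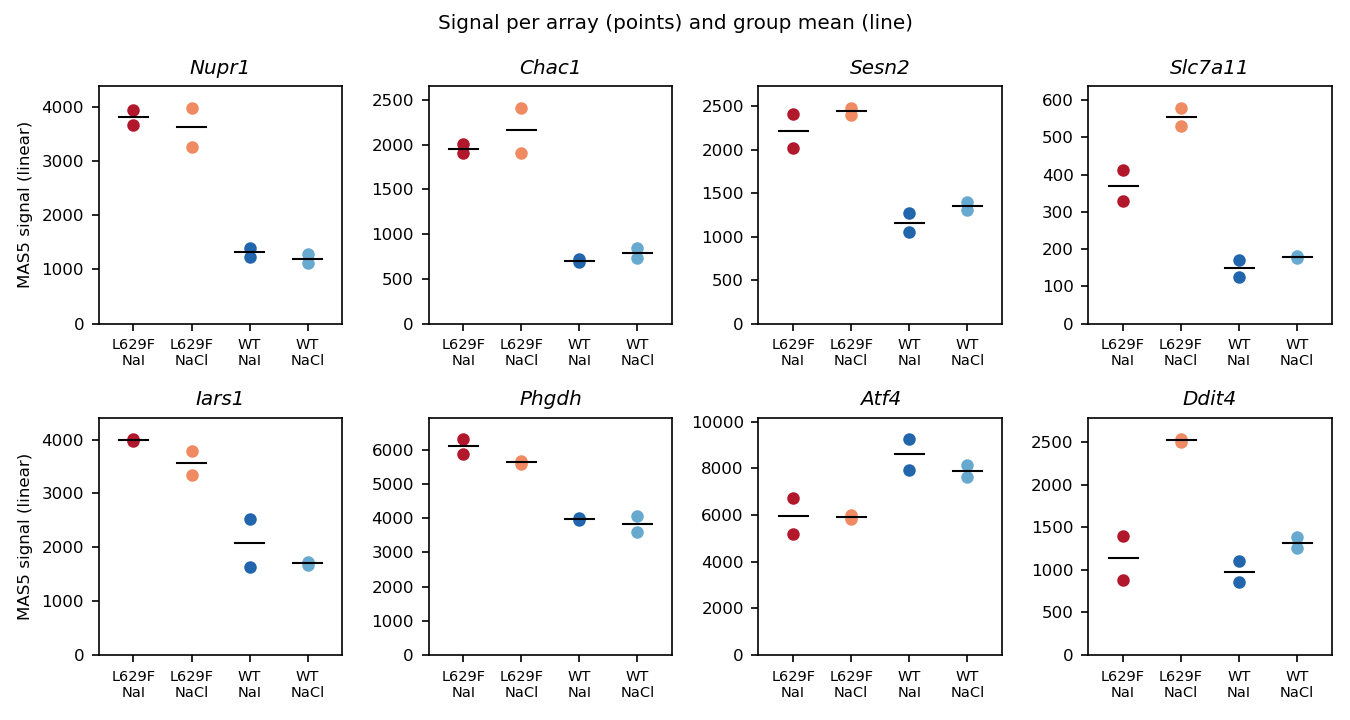
MAS5 signal (vertical axis, linear, from 0) of 8 genes in the 4 groups, with a point for each array and a line for the mean of 2 arrays. Nupr1, Chac1, Sesn2, Slc7a11, Iars1 and Phgdh lie higher in both L629F groups than in both wild type groups, Atf4 lies lower, and Ddit4 is highest on the L629F chloride arrays (2534 and 2504).

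Each tRNA synthetase loads 1 amino acid onto its tRNAs, except Eprs1, which handles glutamate and proline. The 12 listed synthetases all had a positive change in L629F cells, as did 49.4% of all genes, with a median of 0.50 and a range from 0.09 to 1.01, although Gars1 turned to -0.080 when arrays were centred on all probe sets. The 9 that passed were Cars1, Eprs1, Iars1, Lars1, Nars1, Sars1, Tars1, Wars1 and Yars1. Without the variance trend only Iars1 and Lars1 of these passed, and with arrays centred on all probe sets 7 did. Iars1, for isoleucine, read 3976, 4009, 3347 and 3794 in L629F cells and 2521, 1628, 1731 and 1674 in wild type cells. It was 2.00 times as high in L629F (1.01 ± 0.13, adjusted p = 0.00125), and its second probe set gave 0.91.

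Lars1, for leucine, read 4739, 4731, 4511 and 4431 in L629F cells and 3362, 2983, 2744 and 2707 in wild type cells (0.64 ± 0.09, adjusted p = 0.00278). Its second probe set, of mean signal 195 and also kept, gave 0.12, and averaged over its kept probe sets Lars1 missed the threshold (adjusted p = 0.0949). Eprs1 read 9257, 8952, 8669 and 8571 in L629F cells and 6307, 6345, 5817 and 6289 in wild type cells (0.52 ± 0.08, adjusted p = 0.00458), and its 2 further kept probe sets gave 0.49 and 0.41, while a dim one of mean signal 22.8 gave 0.11. Lars1 and Eprs1 had no overlap between the lines, and their spread within a line was small, with SDs of 156 and 309 over the 4 L629F arrays.

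Yars1, for tyrosine, read 5976, 5354, 6316 and 5177 in L629F cells and 3986, 4486, 3098 and 3533 in wild type cells (0.60 ± 0.10, adjusted p = 0.00706). Sars1, for serine, read 3732, 4144, 3637 and 3859 in L629F cells and 2820.2, 2401, 2399 and 2715 in wild type cells (0.57 ± 0.10, adjusted p = 0.00857). Each missed the threshold only without wild type chloride replicate 1 among the fits that left out 1 array. Cars1, for cysteine, read 2913, 3607, 2494 and 2781 in L629F cells and 2203, 2343, 1746 and 1693 in wild type cells (0.56 ± 0.10, adjusted p = 0.0125). All 4 probe sets of Cars1 had a positive change, from 0.42 to 0.72, the least bright having a mean signal of 211.

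Nars1, for asparagine, read 9469, 9999, 8156 and 8097 in L629F cells and 7289, 7292, 5858 and 5860.4 in wild type cells (0.44 ± 0.08, adjusted p = 0.0104). Tars1, for threonine, read 2593, 2900.2, 2167 and 2251 in L629F cells and 2021, 2028, 1558 and 1439.8 in wild type cells (0.49 ± 0.10, adjusted p = 0.0182). Wars1, for tryptophan, read 2377, 2491, 1999.5 and 2105 in L629F cells and 1761, 1672, 1575 and 1372 in wild type cells (0.48 ± 0.10, adjusted p = 0.0226). These 3 had the smallest changes of the 9 that passed. Nars1 passed in 6, Cars1 in 4, Tars1 in 3 and Wars1 in 2 of the 8 fits without 1 array.

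The 3 synthetases that did not pass were Mars1, Aars1 and Gars1, for methionine, alanine and glycine. Aars1 read 7208, 7861, 5898 and 4971 in L629F cells and 5488, 6522, 4122 and 4928 in wild type cells (0.30 ± 0.10, adjusted p = 0.135). Mars1 ranged from 4628 to 5427 in L629F cells and from 3045 to 5377 in wild type cells (0.40 ± 0.12, adjusted p = 0.0795), and Gars1 from 5734 to 6450 in L629F cells and from 4694 to 6519 in wild type cells (0.09 ± 0.09, adjusted p = 0.588). By structural class, 6 of 7 class I enzymes and 3 of 5 class II enzymes passed, all of them higher, against 2.04% of all genes. Eprs1, which handles glutamate and proline, was counted in class I only, and a difference between the classes was not tested.

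Synthetases outside the list were counted in the same way. Of the other cytosolic synthetases and the scaffold proteins of the multi-synthetase complex, 10 of 11 were tested and none passed, with a median change of -0.014 (limma; 2 at an unadjusted p under 0.05). Among them Vars1, for valine, had a change as large as those of most listed enzymes, with 857, 970.2, 733 and 845 in L629F cells and 499, 781, 566 and 384 in wild type cells (0.62 ± 0.16, adjusted p = 0.0609). Of 17 mitochondrial synthetases, 13 were tested and none passed, with a median of -0.047 (1 at an unadjusted p under 0.05). These lists were chosen by function and by what is known of ATF4 targets, so the contrast with the 12 listed enzymes is a description.

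The machinery upstream of ATF4 did not pass either. The 16 tested genes of eIF2 kinases, eIF2, its exchange factor eIF2B and the phosphatase subunits had a median change of -0.10 and none past the threshold (limma; 2 at an unadjusted p under 0.05). When arrays were centred on all probe sets, 2 of the 16 were called lower, as were 12.2% of all genes, and with quantile normalization 1 was called higher. In a wider list of 17 genes linked to ATF4, 14 were tested, 4 were higher in L629F cells and 1 was lower. Slc38a2, a glutamine and alanine carrier, read 3800.0, 3550.2, 4466 and 4286 in L629F cells and 2293, 1852, 2768 and 2528 in wild type cells (0.77 ± 0.10, adjusted p = 0.00163). The others that were higher were Slc1a5, a further glutamine carrier (0.60 ± 0.11, adjusted p = 0.014), Eif4ebp1, a brake on translation (0.75 ± 0.15, adjusted p = 0.0174), and Herpud1, of the degradation of misfolded proteins (0.64 ± 0.09, adjusted p = 0.00301). Gadd45a, a growth arrest gene, was lower, with 995, 928, 1603 and 1199.9 in L629F cells and 2073, 1603, 3103 and 2635 in wild type cells (-0.96 ± 0.13, adjusted p = 0.00176). Of these 5, Slc1a5 passed in 3 and Eif4ebp1 in 5 of the 8 fits without 1 array, and the other 3 passed in all.

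**Figure D3:**
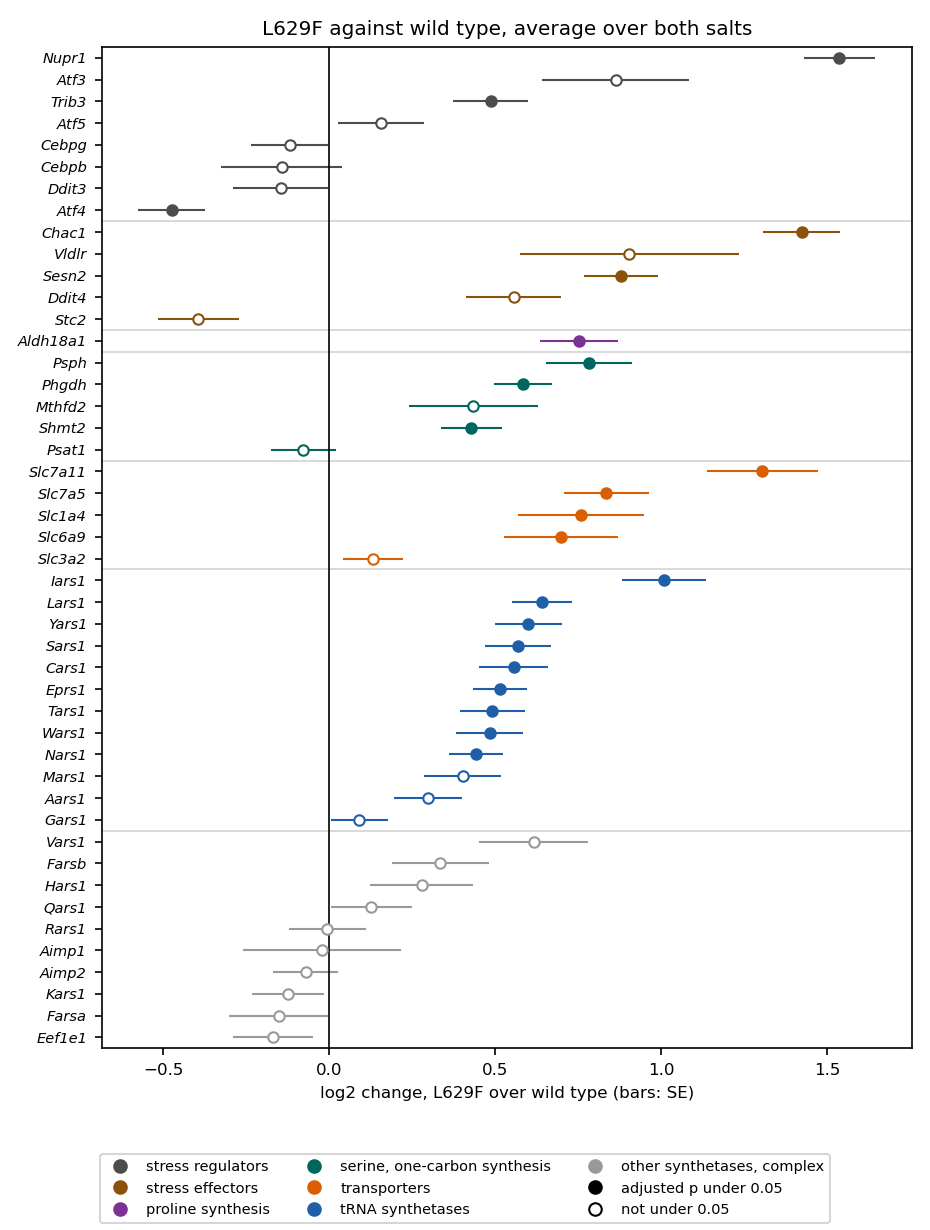
Change of the 36 tested genes and of 10 other cytosolic synthetases and complex proteins between L629F and wild type cells (horizontal axis, log2 change averaged over both salts; bars are SEs; filled points have adjusted p under 0.05). Filled points lie to the right in every role group except for Atf4, which lies to the left at -0.47, and no point of the other synthetases is filled.

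Promoter windows are described because 21 of the members were higher together. RefSeq promoter windows of GRCr8, from 250 bases before the annotated gene start to 50 bases after it, were matched for 35 of the 38 genes, and Atf3, Gars1 and Aldh18a1 had no window in the table. The core of the C/EBP-ATF response element was searched as TGATGNAA on both strands, and the cyclic AMP response element as TGACGTCA, which reads the same on both. No window held overlapping matches of the 2 motifs. A gene was counted when any of its windows held the motif. The C/EBP-ATF core was present in 12 of the 35 genes (34.3%), against 1141 of 27457 genes with a window (4.16%). It was in 7 of 11 synthetases (63.6%), in Nupr1, Trib3, Chac1, Slc1a4 and Pycr1, and in none of the 5 genes of serine and one-carbon synthesis. Among other lists it was in none of 9 further cytosolic synthetases and complex proteins with a window, none of 16 mitochondrial synthetases, 2 of 16 genes of the eIF2 pathway (12.5%) and 5 of 12 further ATF4-linked genes (41.7%). The cyclic AMP element was in 0 of the 35 genes, against 2.0% of all genes. At so low a share, 35 genes are too few to show a lack of it, and shorter forms of the element were not searched. The list was assembled around known ATF4 targets, so the share is not independent of the choice of genes, and a match is no evidence of binding.

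The 13 matches in the 12 genes are shown because they let the sites be compared. Each is given with 8 bases on both sides where the window allows, 5′ to 3′ on the strand that reads TGATGNAA, with the core in capitals and GRCr8 positions.
Aars1 chr19:55908362-55908385 minus strand: ggctcggcTGATGCAAtgctcaag
Aars1 chr19:55908483-55908506 minus strand: gagcgctcTGATGAAAagtgaccc
Cars1 chr1:208225337-208225360 plus strand: ccagaatcTGATGCAAccgcggcg
Chac1 chr3:126795956-126795979 minus strand: agcaggagTGATGCAAcggcggag
Iars1 chr17:15193661-15193684 plus strand: tctggaggTGATGCAAtactgaca
Mars1 chr7:65023755-65023778 plus strand: gcccacgcTGATGCAAccggaacg
Nars1 chr18:60275781-60275804 minus strand: aggtgatcTGATGCAAcgcttcag
Nupr1 chr1:190645941-190645964 plus strand: gccctgtcTGATGCAAtctggcct
Pycr1 chr10:106420928-106420951 minus strand: cctgtgtaTGATGCAAtgtacaag
Slc1a4 chr14:98761782-98761805 plus strand: tggctggaTGATGCAAcgctggag
Tars1 chr2:62114814-62114837 plus strand: taaccagcTGATGCAAcgggacgc
Trib3 chr3:161275539-161275562 plus strand: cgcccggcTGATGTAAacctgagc
Yars1 chr5:146820193-146820212 plus strand: agctcagcTGATGCAAcctg
The N of the core was C in 11 of the 13, A in the downstream match of Aars1 and T in Trib3.

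Whole windows follow for Nupr1, Chac1 and Iars1, the regulator, the effector and the synthetase with the largest changes, on the strand of the gene with the core in capitals. In these 3 the core lies on the opposite strand and so reads TTGCATCA.
Nupr1 chr1:190645852-190646151 minus strand: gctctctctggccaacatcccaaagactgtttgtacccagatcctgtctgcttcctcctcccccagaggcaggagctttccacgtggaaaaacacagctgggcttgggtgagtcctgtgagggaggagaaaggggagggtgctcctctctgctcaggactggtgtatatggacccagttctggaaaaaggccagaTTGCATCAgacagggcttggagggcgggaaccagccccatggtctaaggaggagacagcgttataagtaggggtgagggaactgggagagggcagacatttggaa
Chac1 chr3:126795881-126796180 plus strand: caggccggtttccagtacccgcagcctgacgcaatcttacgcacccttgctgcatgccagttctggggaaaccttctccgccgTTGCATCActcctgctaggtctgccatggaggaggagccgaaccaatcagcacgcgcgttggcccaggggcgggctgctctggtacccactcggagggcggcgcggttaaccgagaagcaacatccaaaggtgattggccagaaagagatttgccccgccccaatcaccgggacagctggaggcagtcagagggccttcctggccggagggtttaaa
Iars1 chr17:15193603-15193902 minus strand: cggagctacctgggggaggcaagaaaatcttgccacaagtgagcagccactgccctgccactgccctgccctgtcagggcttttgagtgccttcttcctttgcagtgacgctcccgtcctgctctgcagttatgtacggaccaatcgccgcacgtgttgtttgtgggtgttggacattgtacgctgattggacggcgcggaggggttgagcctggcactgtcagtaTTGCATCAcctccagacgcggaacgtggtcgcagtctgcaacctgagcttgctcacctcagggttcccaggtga
The core began 55 bases before the start of Nupr1, 167 before that of Chac1 and 24 before that of Iars1.

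Of the tested members with the core, 9 of 11 were higher in L629F cells, and of those without it, 11 of 22 were higher and 1 was lower. The 2 with a core that did not pass were Aars1 and Mars1. Among genes that are not members, 8 of 160 with the core (5.0%) and 128 of 8232 without it (1.55%) were higher, with median changes of 0.029 and -0.011. The non-members still take in the further ATF4-linked genes, and Herpud1, which has a core, is among the 8. Psph, Phgdh, Shmt2, Slc7a5, Slc7a11, Sesn2, Lars1, Sars1, Wars1, Eprs1 and Slc6a9 were higher without a core in this window, which says only that these letters are not in it.

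**Figure D4:**
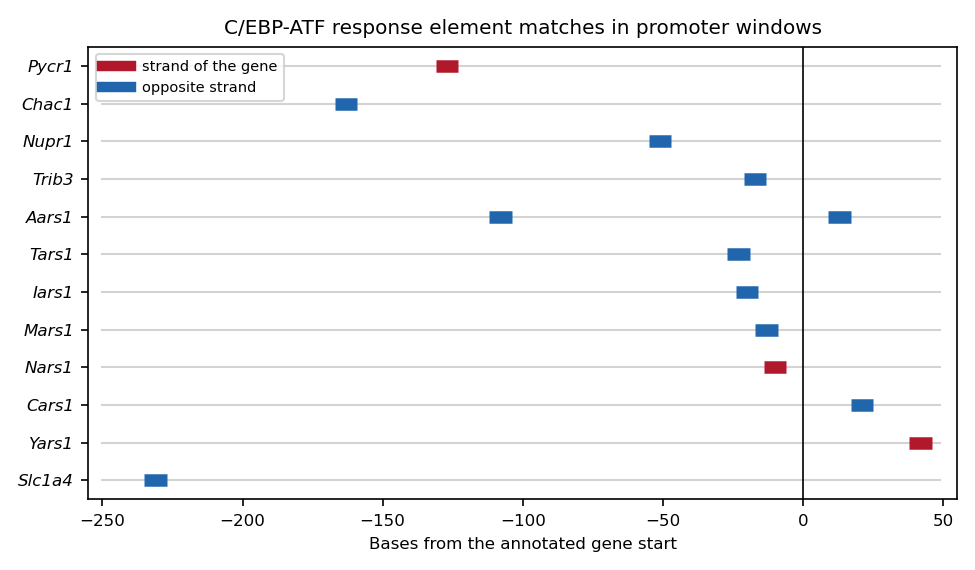
Position of the C/EBP-ATF core in the promoter windows of the 12 genes that hold it (horizontal axis, bases from the annotated gene start; red, strand of the gene; blue, opposite strand). In 6 of the 7 synthetases a match lies between 27 bases before and 24 bases after the start, and in Yars1 it lies at 38 to 45 bases after it, the start being base 0.

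The receptor comparison was also made within each salt. These 2 comparisons share no arrays but take their variance from all 8. With iodide, 5 members were higher in L629F cells and none was lower, against 0.358% and 0.129% of all genes. These were Nupr1, Chac1, Sesn2, Slc7a5 and Iars1. Without iodide, 8 were higher and none was lower, against 0.328% and 0.149% of all genes. These were Nupr1, Chac1, Sesn2, Psph, Slc7a11, Iars1, Lars1 and Yars1. The 4 genes Nupr1, Chac1, Sesn2 and Iars1 thus passed under both salts, as did 0.189% of all genes (19). Without iodide, Nupr1 and Chac1 passed in all 13 other settings, those that leave out 1 array not counted. Slc7a11 passed in 12, Iars1 and Yars1 in 10, Lars1 and Sesn2 in 9 and Psph in 7 of these 13. Leaving out 1 array, the change ran from 0.76 to 1.09 for Psph, 0.69 to 0.72 for Lars1 and 0.64 to 0.93 for Yars1. Psph missed the threshold in each of these fits. Slc7a11, Lars1 and Yars1 missed in every one that left out a chloride array, and Lars1 and Yars1 also without either L629F iodide array. With iodide, Sesn2 passed in 3 and Iars1 in 1 of the 8 fits without 1 array, and both missed when only the arrays of that comparison were fitted, where Nupr1 and Chac1 passed. Without iodide, each of Sesn2 and Iars1 passed in 4 of the 8 fits, missing in every one that left out a chloride array.

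For these 4 genes the changes under the 2 salts differed by less than the SE of that difference. The change of Nupr1 was 1.51 ± 0.15 with and 1.56 ± 0.15 without iodide, and that of Chac1 was 1.44 ± 0.16 with and 1.41 ± 0.16 without it. Sesn2 gave 0.92 ± 0.16 with and 0.84 ± 0.16 without iodide, and Iars1 gave 0.97 ± 0.18 with and 1.05 ± 0.18 without it. Slc7a5 was called with iodide and not without it (1.16 ± 0.18, adjusted p = 0.0168, against 0.51 ± 0.18 without iodide, adjusted p = 0.249). The difference between the salts itself was 0.66 ± 0.25 and did not pass (adjusted p = 0.993). Over all 36 genes, 31 had a positive change with and 30 without iodide, against 48.5% and 50.8% of all genes. With iodide, the count was 2 without L629F iodide replicate 1 or 2, 3 without wild type iodide replicate 1 or either wild type chloride array, and 4 in the other fits. Without iodide, leaving out any of the 4 chloride arrays left 1 or 2 members past the threshold and leaving out an iodide array left 6 to 8.

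The second question, that of the series' design, was what iodide does in these cells. Averaged over both lines, Ddit4 was the only member that passed, and it was lower with iodide, as were 1.08% of all genes, while 0.518% were higher. Ddit4 read 1395 and 881 with iodide and 2534 and 2504 with chloride in L629F cells, and 853 and 1099.8 with iodide and 1381 and 1251 with chloride in wild type cells. In each line both iodide arrays lay below both chloride arrays. The change was -0.79 ± 0.14 (adjusted p = 0.0143), and with 1 array left out it passed in 4 of the 8 fits, missing in each that left out a chloride array. Without wild type iodide replicate 1 the count of members past the threshold was 4, with Psat1, Aars1 and Mars1 added. Within L629F cells the change of Ddit4 was -1.16 ± 0.20 (adjusted p = 0.0551) and within wild type cells -0.43 ± 0.20 (adjusted p = 0.413). The difference between the lines was -0.73 ± 0.29 (adjusted p = 0.993).

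The tRNA synthetases all had a positive change with iodide, as did 52.2% of all genes, but none passed. Their median was 0.24, against 0.012 over all genes, and the 12 changes ran from 0.05 to 0.44. An unadjusted p under 0.05 was found for 7 of the 12, and for 15.2% of all genes. In 9 of the 12 both iodide arrays lay above both chloride arrays in each line, and over all members this held for 11 of 36, against 8.19% of all genes. Aars1 came closest. It read 7208 and 7861 with iodide and 5898 and 4971 with chloride in L629F cells, and 5488 and 6522 with iodide and 4122 and 4928 with chloride in wild type cells (0.44 ± 0.10, adjusted p = 0.0512). It passed with a pseudocount of 100, after dropping the dimmest 60% of probe sets and with either centring.

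Tars1 read 2593 and 2900.2 with iodide and 2167 and 2251 with chloride in L629F cells, and 2021 and 2028 with iodide and 1558 and 1439.8 with chloride in wild type cells (0.37 ± 0.10, adjusted p = 0.0824). Nars1 followed with a change of 0.29 ± 0.08 (adjusted p = 0.094). The pattern depended on the probe set and the scaling. Averaging all kept probe sets per gene, 10 of the 12 changes were positive with a median of 0.11, and with quantile normalization 11 of 12 were, with a median of 0.19. The second probe sets of Mars1 and Wars1 gave -0.19 and -0.29, against 0.33 and 0.23 for the brightest. The further kept probe sets of Cars1 gave 0.053, 0.019 and -0.031, against 0.35 for its brightest. Those of Eprs1 gave -0.079 and -0.15, against 0.071. The second probe sets of Gars1 and Lars1 gave 0.0093 and 0.038, against 0.26 and 0.15. Only that of Iars1 gave more than its brightest, 0.32 against 0.21. The GAPDH ratio was higher on the iodide arrays, and with it as a covariate all 12 changes stayed positive with a median of 0.25.

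In the other role groups the change with iodide was positive in 4 of 8 regulators, 1 of 5 effectors, 2 of 5 genes of serine and one-carbon synthesis and 2 of 5 transporters. Their median changes with iodide were -0.028 for the regulators, -0.18 for the effectors, -0.041 for serine and one-carbon synthesis and -0.023 for the transporters. Psat1, the serine enzyme that was not called between the receptors, read 21776 and 21081 with iodide and 19032 and 16583 with chloride in L629F cells, and 20909 and 27647 with iodide and 16648 and 18714 with chloride in wild type cells. Both iodide arrays lay above both chloride arrays in each line (0.36 ± 0.10, adjusted p = 0.0884). Slc7a11, Stc2 and Ddit4 were the 3 of 36 members with both iodide arrays below both chloride arrays in each line, against 6.07% of all genes.

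Cebpb read 1457 and 2664 with iodide and 2105 and 2584 with chloride in L629F cells, and 1421 and 2312 with iodide and 2972 and 3238 with chloride in wild type cells. The L629F pairs overlapped (-0.50 ± 0.18, adjusted p = 0.194). Ddit3 and Atf5 gave -0.29 ± 0.14 (adjusted p = 0.359) and -0.16 ± 0.13 (adjusted p = 0.615). Slc7a11 gave -0.39 ± 0.17 (adjusted p = 0.282), Psph -0.30 ± 0.13 (adjusted p = 0.29) and Mthfd2 -0.36 ± 0.19 (adjusted p = 0.414). Slc3a2, Slc7a5, Sesn2 and Stc2 gave 0.19, -0.19, -0.18 and -0.19 with adjusted p-values from 0.343 to 0.539. None of these passed. Atf4 itself gave 0.06 ± 0.10 (adjusted p = 0.824). Among the wider ATF4-linked genes, Gadd45a was lower with iodide (-0.58 ± 0.13, adjusted p = 0.0417), and it passed in 2 of the 8 fits without 1 array, with changes from -0.68 to -0.47.

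**Figure D5:**
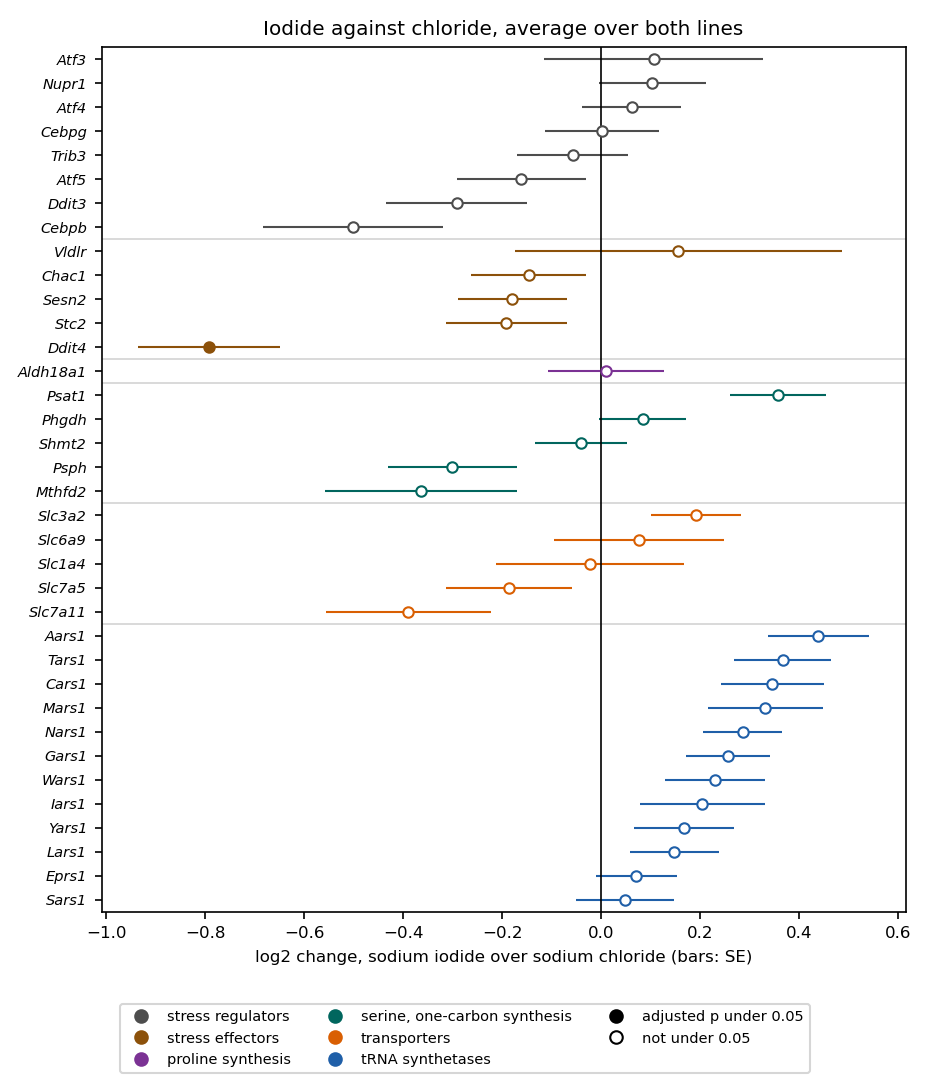
Change of the 36 tested genes between iodide and chloride arrays (horizontal axis, log2 change averaged over both lines; bars are SEs; the filled point has adjusted p under 0.05). All 12 synthetases lie to the right of 0 with open points, and Ddit4 is the filled point, at -0.79.

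Within a single line no member passed for iodide by limma, in L629F cells (0.0896% of all genes called, 6 members and 8.18% of all genes at an unadjusted p under 0.05) or in wild type cells (0.458% called, 12 members and 12.5% of all genes at an unadjusted p under 0.05). The difference of the iodide change between the lines, L629F minus wild type, was called by limma for no gene, 418 of the 10048 genes (4.16%) having an unadjusted p under 0.05. Among the members 2 had one, Slc7a5 and Ddit4, and the lowest adjusted p was 0.993. The synthetases had a median iodide change of 0.19 in L629F cells and 0.33 in wild type cells, with 11 and 12 of the 12 positive, against 51.4% and 53.2% of all genes. None of these differences between the lines passed.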

How the data were processed

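Gene expression was measured on 8 single-colour Affymetrix rat arrays, 2 for each of the 4 groups. Each deposited value was the linear intensity of 1 probe set on 1 array, which the authors obtained using MAS5, per the submitters' processing notes. For MAS5 no version, scaling target or detection call was given in the labels or notes used. Depth does not apply to arrays, and their number limits the precision (median SE 0.14 log2 for an average over lines or salts and 0.20 within a salt).

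Control probe sets (57 of 31099) and the lowest 40% by mean log2 signal (geometric mean under 65.3) were left out, leaving 18631. Probe sets were named from the platform annotation, with symbols updated through GRCr8 RefSeq, and those with several symbols or none were not used. The brightest probe set by mean signal stood for each gene, which left 10048 genes. The 25th percentile of all signals, 35.25, was added as a pseudocount before log2, a scale that understates changes of dim genes. The linear model had 1 coefficient per group and no centring, and its variances were moderated along mean intensity (lmFit and trended eBayes of limma 3.58.1, R 4.3.3) with 4 residual and 9.37 prior degrees of freedom. Tests of the 7 comparisons were two-sided, and p-values were adjusted by Benjamini-Hochberg across the 10048 genes at 0.05. The fit was tested on simulated data. Files were read with the packages data.table (version 1.17.8) and pandas (version 2.3.3), with plots by matplotlib 3.10.9 under Python 3.11.15.

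Signals on every array are given for each member past the threshold, for Atf4 and Asns, and for up to 3 members of each role group by smallest p in the average receptor and average iodide comparisons. The values given for Atf3, Vars1 and Pdgfra were chosen after they were seen. The rule for the members uses no measured value, but they and all gene lists were chosen with earlier results of these data known, so no test over a list was made. The alternatives changed the pseudocount, the filter on dim probe sets, array scaling, probe set choice, the variance trend, which arrays were fitted, the replicate term, a GAPDH covariate and the threshold, and each array was left out in turn.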

Additional observations from a re-analysis of the deposited data

How the results depend on the processing

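The count of members past the threshold between L629F and wild type cells, 22 as averaged over the salts, was 18 to 26 under all other settings except without the intensity trend, where it was 10. Leaving out 1 array gave 10 to 20. With iodide, where it was 5, it was 3 with no filter, 9 with quantile normalization, 2 without the trend, 13 with the GAPDH covariate, 2 with only the arrays of the comparison and 10 at a threshold of 0.1, and 2 to 4 when 1 array was left out. Without iodide, where it was 8, it was 2 with no filter on dim probe sets, 3 when centred over all probe sets, 5 when a gene's probe sets were averaged, 3 without the trend and 15 with the GAPDH covariate, and 1 to 8 when 1 array was left out.

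For iodide averaged over the lines, where 1 member passed, the count was 2 with a pseudocount of 100, after dropping the lowest 60% of probe sets, when centred on kept probe sets and with the GAPDH covariate. It was 3 when centred on all probe sets, 0 without the trend, 5 at a threshold of 0.1 (Ddit4, Psat1, Aars1, Nars1 and Tars1) and 0 to 4 when 1 array was left out. In L629F cells, where none passed, it was 1 with a pseudocount of 100, with the lowest 60% left out, with the GAPDH covariate and at a threshold of 0.1, and 0 to 1 when 1 array was left out. In wild type cells it was 1 with the GAPDH covariate and 0 in all fits without 1 array. No member passed for the difference between the lines under any setting run. The cause of these shifts was not tested. No call changed direction in 5890 alternative values. These came from 287 pairs of gene and comparison, called or not, and 183 of them changed sign without passing in either fit.

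Samples of the same replicate number are not stated to be paired, so the pairing was not used in the main fit. Their deviations correlated weakly but positively in all 6 pairs of groups, by 0.048 to 0.228. In every group the GAPDH and actin ratios were higher on replicate 2 than on replicate 1. For GAPDH they were 1.22 and 1.55 in wild type chloride, 1.40 and 3.13 in wild type iodide, 1.54 and 2.17 in L629F chloride, and 2.27 and 2.49 in L629F iodide. The replicate number thus goes together with these ratios. Whether arrays of 1 replicate number share an effect was not tested. With the replicate block, 26 members passed for the receptor average, 14 with and 17 without iodide, while over all genes the calls went up to 777, 169 and 243, against 315, 49 and 48 without it. For the iodide average 7 passed (Cebpb, Ddit4, Psat1, Aars1, Cars1, Nars1 and Tars1), while 520 of all genes were called, against 161 without it. For iodide in L629F and in wild type cells 1 member each passed.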
